A study of Homo sapiens with 4 samples.

Results

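The genes described here are transporters of the solute carrier families that carry most amino acids across human cell membranes, measured by RNA sequencing in a pair of melanoma cell lines. Members were taken by symbol: every listed gene of the families SLC1A, SLC6A, SLC7A, SLC36A, SLC38A and SLC43A, with the cystine importer SLC7A11 left out. The rule found 25 of 18175 listed genes and loci. The gene name table holds 56 symbols of these families, and 31 of them are not among the listed genes, whose FPKM sum over the libraries is 1.00 or more (FPKM: counts per kilobase of gene, scaled to library depth). Of the 25 members, 23 reached an FPKM of at least 1 in a library. The rule itself goes by symbol alone, while the listing of a gene depends on its level. A few members carry other substrates than amino acids, and they are described with their families.

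The study set cells given siLINC01291, named for the non-coding RNA that it targets, against cells given siNC, by its name a control siRNA. SK-MEL-28 siLINC01291, SK-MEL-28 siNC, A375 siLINC01291 and A375 siNC were represented by 1 library each, and both lines are established human melanoma lines grown in serum-containing medium. The treatment label also lists an agent called EL without saying what it is or which cells received it. With 1 library per group, values within a line have no replicate check and no p-value. The lines are the only replicates of the treatment, and p-values over both lines measure the spread between these libraries alone. The labels name a single siRNA for the target and give no sequence for it.

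Amino acid transporters fall into carriers driven by sodium or proton gradients and exchangers that trade an internal amino acid for an external one. SLC7A5 and its relatives are light chains that need a heavy chain, SLC3A2 or SLC3A1, to reach the cell surface. SLC7A5 itself imports large neutral amino acids such as leucine in exchange for glutamine. Sodium-coupled carriers of the SLC1 and SLC38 families load the cell with the small neutral amino acids that such exchange uses up. Growing tumour cells, melanoma among them, depend on these routes for protein synthesis, for glutamine and for keeping the growth kinase complex mTORC1 active.

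The libraries held between 29351240 and 31815336 counts over the listed genes. LINC01291 itself had 3.69 FPKM in SK-MEL-28 siLINC01291 against 8.11 in SK-MEL-28 siNC, and 2.28 FPKM in A375 siLINC01291 against 6.39 in A375 siNC, so both target libraries lay below their controls. All 8 melanocyte lineage genes looked for were listed. SOX10 lay between 80.1 and 146 FPKM in the 4 libraries, whereas the pigment genes MLANA and TYR were at 0.774 and 0.0846 FPKM in A375 siLINC01291 and 0.830 and 0.112 FPKM in A375 siNC, all under an FPKM of 1. The 8 genes summed to 1937 and 1617 FPKM in SK-MEL-28 and 133 and 92.4 FPKM in A375 (siLINC01291 and siNC of each line). Between siLINC01291 and siNC 0 of 8 passed, where 0.222% of all genes tested rose and 0.674% fell. The part of the lineage difference between SK-MEL-28 and A375 in their transporter differences was not tested. No leukocyte or endothelial marker of those looked for was listed, and of 4 fibroblast markers LUM alone was, at 3.25 to 8.07 FPKM. Of 4 keratinocyte markers 2 were listed: KRT14 had 0.0151 and 0.0451 FPKM in SK-MEL-28 and 7.32 and 6.16 FPKM in A375 (siLINC01291 and siNC of each line), and KRT10 had 19.9 and 18.0 FPKM in SK-MEL-28 and 27.7 and 27.1 FPKM in A375. The part of these markers in the differences between the lines was not tested either.

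A single gene had the highest transporter level in every library. SLC7A5, which imports leucine and other large neutral amino acids, stood at 311 FPKM in SK-MEL-28 siLINC01291, 254 in SK-MEL-28 siNC, 569.8 in A375 siLINC01291 and 606 in A375 siNC. It made up 41.7 and 38.6% of the summed FPKM of the 25 members in SK-MEL-28 (siLINC01291 and siNC) and 60.2 and 57.7% in A375 (siLINC01291 and siNC). The sum over all members was 746 and 658 FPKM in the SK-MEL-28 libraries (siLINC01291 and siNC) and 946 and 1050.0 FPKM in the A375 libraries (siLINC01291 and siNC). An FPKM of at least 10 was reached by 10 and 11 members in SK-MEL-28 and by 8 and 9 members in A375, again with siLINC01291 given before siNC.

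**Figure D1:**
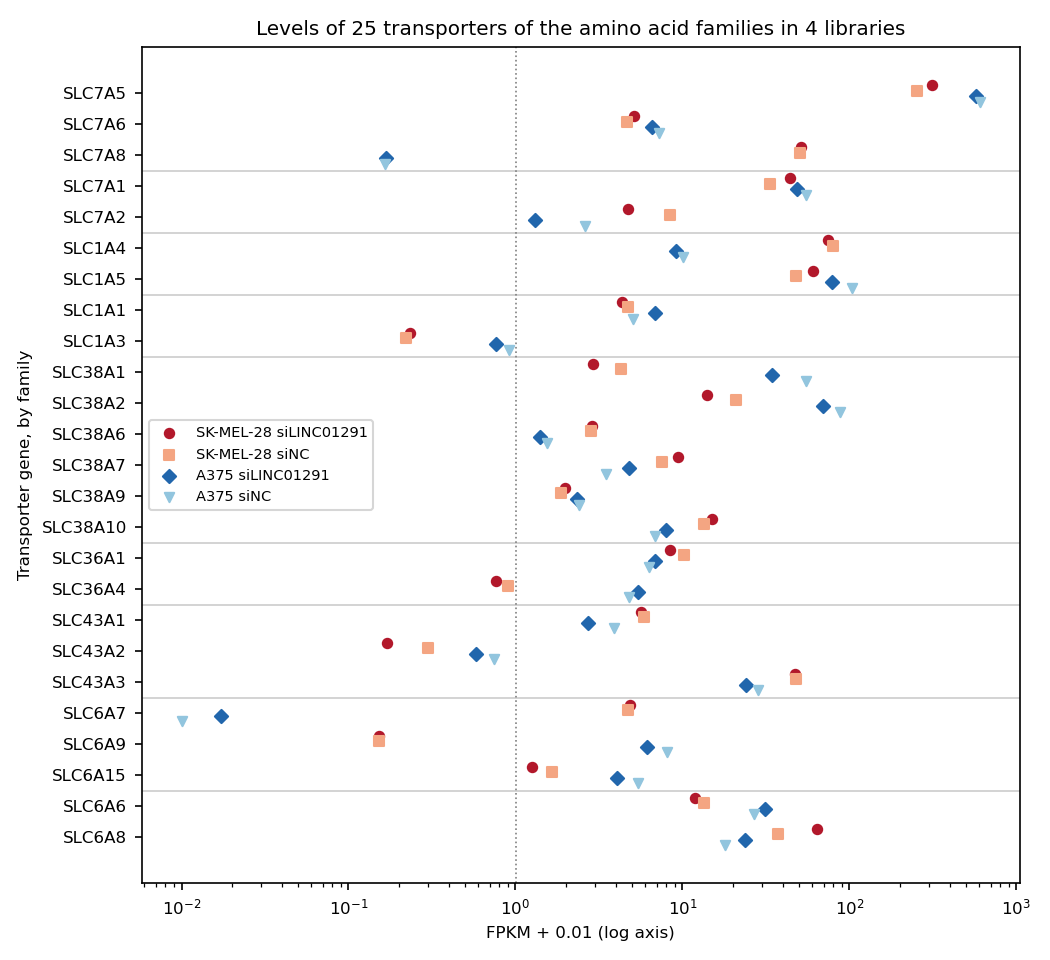
Level of each of the 25 members in each library, as FPKM + 0.01 on a log axis, grouped by family; the dotted line marks an FPKM of 1. SLC7A5 lies rightmost in all 4 libraries, and the libraries of a line lie closer together than those of different lines for genes such as SLC7A8, SLC1A4 and SLC38A1.

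The lines differed in which transporters they expressed. The comparison of SK-MEL-28 with A375 used the cell line term of edgeR's quasi-likelihood fit over all 4 libraries, with a Benjamini-Hochberg adjusted p under 0.05 as the threshold. The libraries of a line, given different siRNAs, stood in as its replicates, and the fit has 1 residual degree of freedom. P-values between the lines therefore measure the spread between these libraries alone, and not that among repeat cultures under the same siRNA. Of the 23 members tested, 11 were higher in SK-MEL-28, where 36.1% of all 13501 genes tested were, and 9 were higher in A375, where 36.3% of all genes were. Most genes of any kind differed between these lines, so the counts say little about the transporters as a class, and the sizes and identities below carry the comparison. SLC1A3 and SLC43A2, under an FPKM of 1 in every library, were not tested.

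Among the light chains, SLC7A8, a second exchanger of neutral amino acids, was abundant in SK-MEL-28 and close to absent from A375. It stood at 50.9 FPKM in SK-MEL-28 siLINC01291 and 50.8 in SK-MEL-28 siNC, against 0.157 in A375 siLINC01291 and 0.156 in A375 siNC (8979 and 8969 counts against 30 and 29). The fit gave a log2 ratio of SK-MEL-28 to A375 of 8.50 (SE 0.13), a 362-fold difference (edgeR adjusted p = 4.65e-07). SLC7A5 went the other way and was 1.86-fold lower in SK-MEL-28 (log2 ratio -0.90, SE 0.10, edgeR adjusted p = 0.000273). SLC7A6, which trades cationic for neutral amino acids, differed little, at 5.09 and 4.63 FPKM in SK-MEL-28 and 6.55 and 7.21 FPKM in A375 (siLINC01291 and siNC of each line). Its log2 ratio of -0.34 (SE 0.11) passed in edgeR (adjusted p = 0.0329) and not in DESeq2 (adjusted p = 0.112). The heavy chain SLC3A2 reached 84.1 and 81.4 FPKM in SK-MEL-28 and 118 and 138 FPKM in A375 in the same order, with a log2 ratio of -0.46 (SE 0.09, edgeR adjusted p = 0.00371). SLC3A1, the other heavy chain, was not analysed here.

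The small neutral amino acid carriers were split between the lines. SLC1A4, a sodium-dependent exchanger of serine, alanine and cysteine, stood at 74.1 FPKM in SK-MEL-28 siLINC01291 and 80.3 in SK-MEL-28 siNC, against 9.09 in A375 siLINC01291 and 10.0 in A375 siNC. That was a 9.05-fold difference (log2 ratio 3.18, SE 0.08, edgeR adjusted p = 1.003e-06), and SLC1A4 ranked second among the members in both SK-MEL-28 libraries. SLC38A1, a sodium-coupled importer of glutamine and other small neutral amino acids, was lower in SK-MEL-28 by 3.46 on the log2 scale of the fit (-3.46, SE 0.09, edgeR adjusted p = 1.02e-06), an 11.01-fold difference. Its relative SLC38A2, which cells raise when amino acids run short, was 4.05-fold lower in SK-MEL-28 (log2 ratio -2.02, SE 0.09, edgeR adjusted p = 5.32e-06). The glutamine carrier SLC1A5 was 1.48-fold lower in SK-MEL-28 (log2 ratio -0.57, SE 0.17, edgeR adjusted p = 0.0222). The sum of the 6 SLC38 members was 46.2 and 50.9 FPKM in SK-MEL-28 and 120 and 157 FPKM in A375 (siLINC01291 and siNC of each line), and that of SLC1A4 and SLC1A5 was 135 and 128 FPKM in SK-MEL-28 and 87.5 and 114 FPKM in A375. In the bulk RNA of a culture, fewer cells that express a gene and less RNA per cell cannot be told apart.

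**Figure D2:**
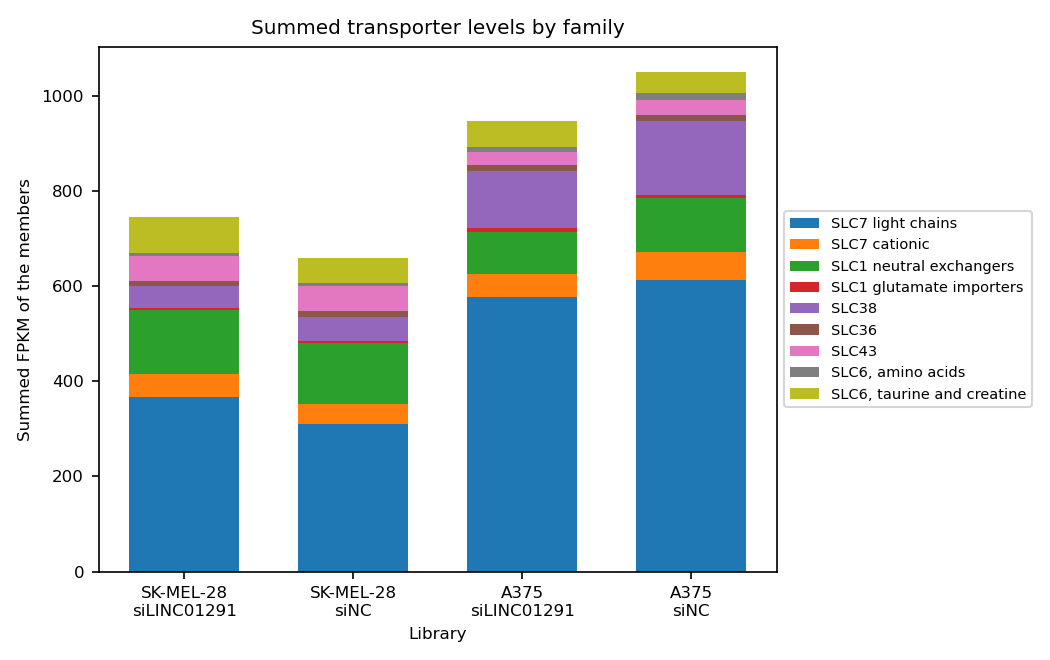
Summed FPKM of the members by family in each of the 4 libraries, stacked. The light chains of SLC7, mostly SLC7A5, form the largest block in every bar, the SLC38 block is larger in A375 and the block of SLC1A4 and SLC1A5 is larger in SK-MEL-28.

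Of the remaining 4 SLC38 members, 3 were higher in SK-MEL-28. SLC38A10, whose role in cells is less well known, had 14.99 and 13.4 FPKM in SK-MEL-28 and 7.99 and 6.86 FPKM in A375 (siLINC01291 and siNC). SLC38A7, a lysosomal carrier of glutamine, had 9.38 and 7.56 FPKM in SK-MEL-28 and 4.75 and 3.45 FPKM in A375, and SLC38A6 had 2.85 and 2.83 FPKM in SK-MEL-28 and 1.40 and 1.54 FPKM in A375. These 3 genes were higher in SK-MEL-28 by log2 ratios of 1.103, 1.22 and 1.12 (SE 0.09, 0.10 and 0.14, edgeR adjusted p between 6.52e-05 and 0.000392). SLC38A9, the lysosomal arginine sensor that signals to mTORC1, was nearly level, at 1.96 and 1.87 FPKM in SK-MEL-28 and 2.32 and 2.40 FPKM in A375; its log2 ratio of -0.14 (SE 0.12) did not pass (edgeR adjusted p = 0.325).

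Cationic amino acids such as arginine and lysine enter through SLC7A1 and SLC7A2. SLC7A1 was among the more abundant members, with 43.9 and 33.2 FPKM in SK-MEL-28 and 48.3 and 54.8 FPKM in A375 (siLINC01291 and siNC), and did not pass between the lines (log2 ratio -0.27, SE 0.14, edgeR adjusted p = 0.135). SLC7A2 was 3.83-fold higher in SK-MEL-28 (log2 ratio 1.94, SE 0.11, edgeR adjusted p = 1.37e-05). Of the proton-coupled carriers, SLC36A1, which moves small neutral amino acids out of lysosomes and across the cell surface, had 8.38 and 10.2 FPKM in SK-MEL-28 and 6.87 and 6.28 FPKM in A375. SLC36A4, a carrier of proline and tryptophan, had 0.756 and 0.894 FPKM in SK-MEL-28, under an FPKM of 1, and 5.44 and 4.77 FPKM in A375, 5.51-fold lower in SK-MEL-28 (log2 ratio -2.46, SE 0.14, edgeR adjusted p = 1.45e-05). SLC36A1 was 1.58-fold higher there (edgeR adjusted p = 0.00303).

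Glycine and proline carriers of SLC6 were each close to absent from a line. SLC6A9, the glycine transporter of the cell surface, had 0.142 FPKM in both SK-MEL-28 libraries (22 counts each) and 6.13 and 8.08 FPKM in A375 siLINC01291 and siNC, 44.1-fold lower in SK-MEL-28 (log2 ratio -5.46, SE 0.18, edgeR adjusted p = 1.75e-06). SLC6A7, a proline transporter best known from brain, had 608 and 590 counts in SK-MEL-28 (4.83 and 4.68 FPKM) and 1 and 0 counts in A375 siLINC01291 and siNC. The ratio of SK-MEL-28 to A375 from the summed counts was 1463 with an exact binomial 95% interval of 262 to 57830.0 that covers counting error only. SLC6A15, a carrier of branched-chain amino acids and proline in nerve cells, was 2.93-fold lower in SK-MEL-28 (1.25 and 1.63 FPKM there against 4.07 and 5.40 FPKM in A375; edgeR adjusted p = 1.84e-05).

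The remaining members transport taurine, creatine, purine bases, branched-chain amino acids or glutamate, and their levels ranged widely. The taurine carrier SLC6A6 was 2.04-fold lower in SK-MEL-28 (11.9 and 13.5 FPKM there, 31.4 and 26.9 FPKM in A375, siLINC01291 and siNC), and the creatine carrier SLC6A8 was 2.66-fold higher (edgeR adjusted p = 0.000263 and 6.79e-05). SLC43A3, which carries purine bases and not amino acids, had 46.9 and 48.1 FPKM in SK-MEL-28 and 23.9 and 28.2 FPKM in A375, and SLC43A1, a facilitated carrier of branched-chain amino acids, had 5.65 and 5.84 FPKM in SK-MEL-28 and 2.73 and 3.90 FPKM in A375. Both were higher in SK-MEL-28, by 2.05-fold and 1.97-fold (edgeR adjusted p = 0.000103 and 0.00135). SLC43A2, a close relative of SLC43A1, had 0.160 and 0.291 FPKM in SK-MEL-28 and 0.570 and 0.731 FPKM in A375. Of the glutamate importers, SLC1A1 had 4.34 and 4.71 FPKM in SK-MEL-28 and 6.79 and 5.04 FPKM in A375, without passing (edgeR adjusted p = 0.262), and SLC1A3 stayed between 0.211 and 0.899 FPKM.

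**Figure D3:**
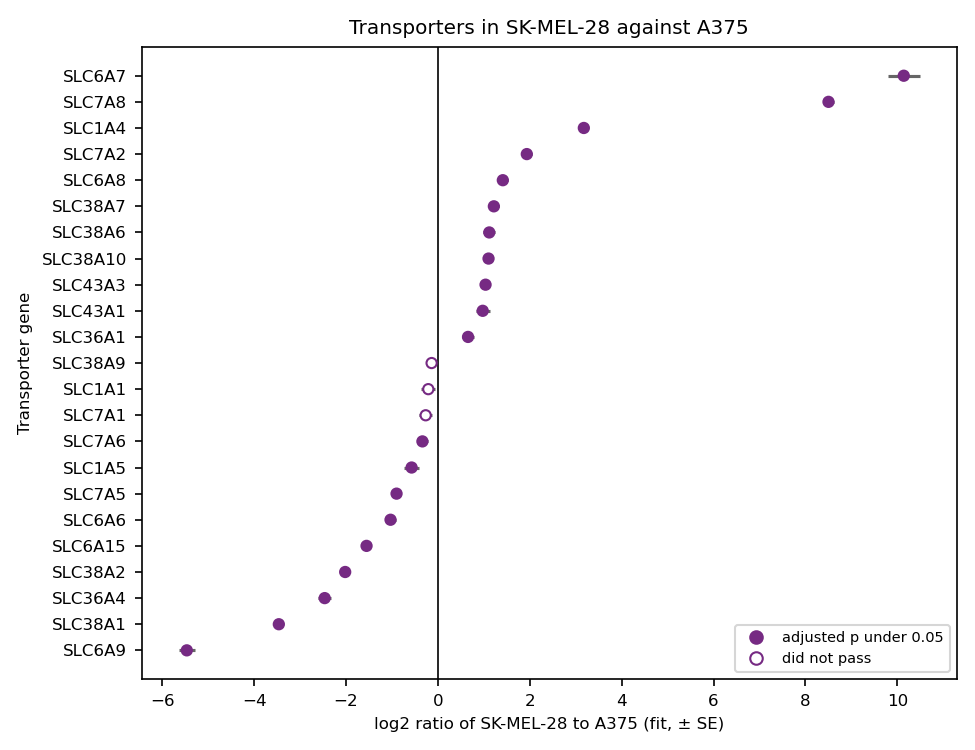
Log2 ratio of SK-MEL-28 to A375 for the 23 members tested, with SE bars that are mostly shorter than the symbols; filled symbols passed at an edgeR adjusted p under 0.05. SLC6A7 (10.14) and SLC7A8 (8.50) lie highest and SLC6A9 (-5.46) and SLC38A1 (-3.46) lowest; the value of SLC6A7 rests on 1 count in A375.

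Few transporters shifted with siLINC01291 over both lines, and those that passed were lower. In edgeR's quasi-likelihood fit with the cell line as a block, 2 of the 23 members tested fell and 0 rose, where 0.674% of all genes tested fell and 0.222% rose. The genes were the arginine and lysine importer SLC7A2 and the glutamine importer SLC38A1. Without adjustment, 7 of the 23 members had a p under 0.05 in edgeR, as had 2282 (16.9%) of all 13501 genes tested. DESeq2 called 3 members lower and 1 higher, limma on log2(FPKM + 1) called 0 higher and 0 lower (6 had an unadjusted p under 0.05), and edgeR without the cell line term called 0. The fit has 1 residual degree of freedom, and both calls are close to the threshold.

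SLC7A2 had 4.72 FPKM in SK-MEL-28 siLINC01291 against 8.46 in SK-MEL-28 siNC, and 1.31 FPKM in A375 siLINC01291 against 2.60 in A375 siNC. Each siLINC01291 library was below its own control, and both A375 libraries were below both SK-MEL-28 libraries. The ratio of siLINC01291 to siNC was 0.544 in SK-MEL-28 (95% interval 0.505 to 0.586, from 1097 and 1971 counts) and 0.486 in A375 (0.424 to 0.556, from 330 and 637 counts); intervals here and below are exact binomial and cover counting error only. Over both lines SLC7A2 fell by 0.94 on the log2 scale (SE 0.11, edgeR adjusted p = 0.0265, lower in 2 of 2 lines).

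SLC38A1 had 2.91 FPKM in SK-MEL-28 siLINC01291 against 4.29 in SK-MEL-28 siNC, and 34.5 FPKM in A375 siLINC01291 against 55.0 in A375 siNC. Although the lines differ 11.01-fold in its level, the ratio of siLINC01291 to siNC was 0.662 in SK-MEL-28 (interval 0.606 to 0.723) and 0.607 in A375 (0.593 to 0.622), with overlapping intervals. It fell by 0.65 over both lines on the log2 scale (SE 0.09, edgeR adjusted p = 0.0379, lower in 2 of 2 lines). With only genes at an FPKM of at least 5 in 2 libraries tested, SLC38A1 did not pass (edgeR adjusted p = 0.0667), and SLC7A2 did not enter that test.

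The next lowest members were SLC38A2 and SLC6A15, neither of which passed. SLC38A2 had 14.1 FPKM in SK-MEL-28 siLINC01291 against 20.9 in SK-MEL-28 siNC, and 69.2 FPKM in A375 siLINC01291 against 88.0 in A375 siNC, with log2 ratios of -0.60 and -0.39 in the lines (-0.49 over both, SE 0.09, edgeR adjusted p = 0.0726). SLC6A15 had log2 ratios of -0.43 in SK-MEL-28 and -0.46 in A375 (-0.43 over both, SE 0.09, edgeR adjusted p = 0.0989). The siLINC01291 library was below its control in both lines for either gene. DESeq2 called SLC38A2 (adjusted p = 0.00728), and so did edgeR without a filter on low values (adjusted p = 0.0270).

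These 4 members, the lowest of the 23 tested over both lines, were also the members with the 8-base word TCTATGAA in the searched 3' UTR. The 3' UTR of the tested member SLC38A10 was not searched, and its log2 value over both lines was 0.155. SLC43A2, too low in level to be tested, holds none of the words in a searched 3' UTR of 6337 bases, and its log2 ratios were -0.87 in SK-MEL-28 (ratio 0.537, exact binomial 95% interval 0.373 to 0.767, from 50 and 91 counts) and -0.40 in A375 (ratio 0.755, 0.621 to 0.916, from 193 and 240 counts). The word was therefore not shared by every member with low ratios in both lines. The word and its 7-base parts CTATGAA and TCTATGA come from earlier work on these data, where they were picked on log2 ratios that include these genes, so their presence here is a description and no independent support. Of 22 tested members with a searched 3' UTR, 4 held TCTATGAA (18.2%) and 6 held at least a 7-base part (27.3%); of all 10725 such genes tested, 3.59% held TCTATGAA and 14.4% a 7-base part. The members' 3' UTRs were longer, with a median of 2210 bases against 1169 bases over all these genes. The median log2 ratio over both lines was -0.57 for the 4 members with TCTATGAA and -0.03 for the 16 members with neither word, beside -0.24 and 0.02 over all genes with and without. Whether the words have a part in the lower levels was not tested.

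The sites are shown because the 4 lowest tested members hold the 8-base word; capitals mark the word, and coordinates are those of GRCh38 (GENCODE 29). SLC38A1 and SLC38A2 each held TCTATGAA once and a separate CTATGAA, SLC6A15 held TCTATGAA once, and SLC1A1 and SLC36A4 held a 7-base part alone.
SLC38A1, 8-base word (chr12:46183512-46183541, minus strand): aaactttgggaTCTATGAAagcggggagag
SLC38A2, 8-base word (chr12:46359314-46359343, minus strand): ttttgtctgttTCTATGAAgataaaataat
SLC6A15, 8-base word (chr12:84861172-84861201, minus strand): ctcagcacattTCTATGAAtatattatgta
SLC38A1, 7-base part (chr12:46184093-46184121, minus strand): ctaaggaagggCTATGAAactgggcccat
SLC38A2, 7-base part (chr12:46361033-46361061, minus strand): aaactcaactaCTATGAAatttcacctaa
SLC36A4, 7-base part (chr11:93148352-93148380, minus strand): tagtggtaaacCTATGAAaaatccttgct
SLC1A1, 7-base part (chr9:4586821-4586849, plus strand): aatagttccatTCTATGActcttgtctcc

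The SLC38A1 sites lie at bases 4860 and 5440 of a 3' UTR of 5907 bases, and those of SLC38A2 at bases 61 and 1779 of 2922. SLC7A2 held the 8-base word at bases 2313 and 3429 of a 3' UTR of 5427 bases, and its sequence is not shown. The members with a 7-base part alone were lower in SK-MEL-28 siLINC01291 and higher in A375 siLINC01291 than in siNC, without passing: SLC1A1 had a log2 ratio of -0.15 in SK-MEL-28 and 0.38 in A375, and SLC36A4 of -0.28 in SK-MEL-28, where it is under an FPKM of 1, and 0.14 in A375. SLC7A11, left out by the rule, held TCTATGAA at 2 places of a 3' UTR of 7859 bases and had 7.47 FPKM in SK-MEL-28 siLINC01291 against 24.5 in siNC, and 5.84 FPKM in A375 siLINC01291 against 27.3 in siNC.

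**Figure D4:**
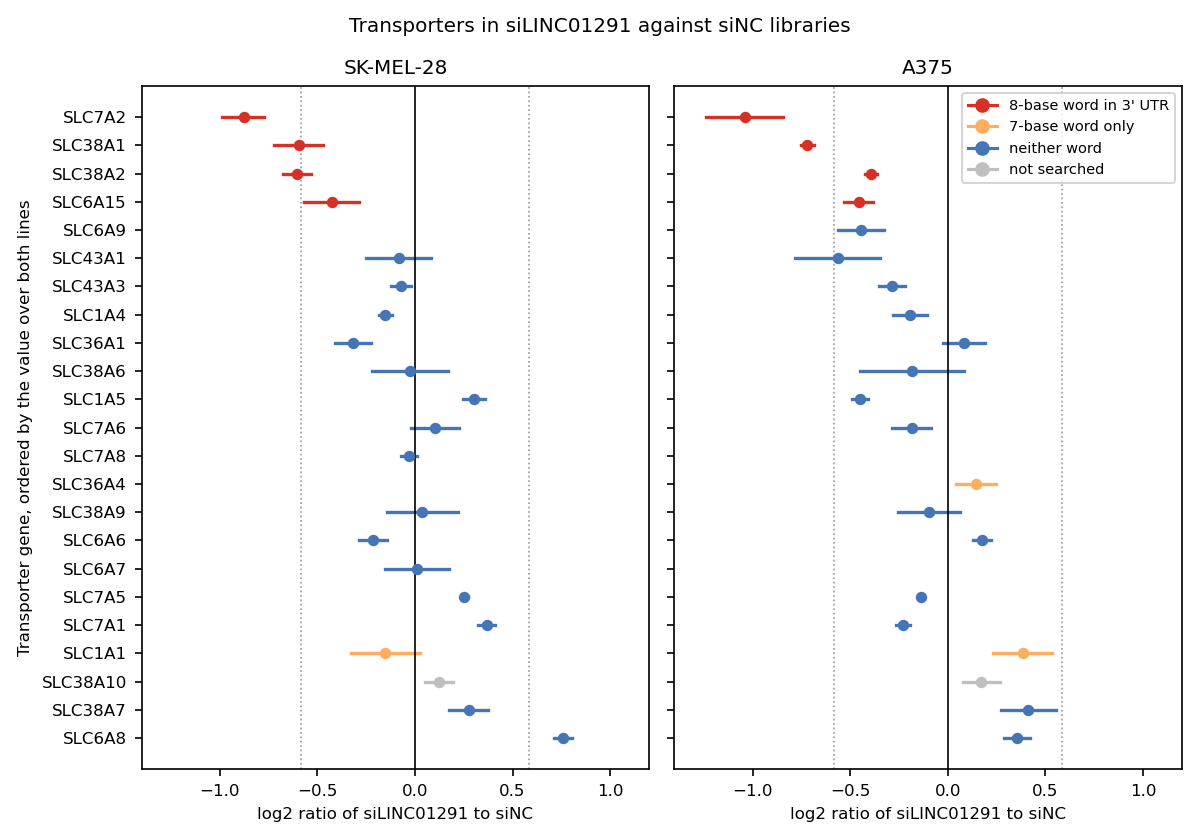
Log2 ratio of siLINC01291 to siNC from counts in each line, with exact binomial 95% intervals, for the 23 members tested over both lines and drawn where the gene reached an FPKM of 1 in that line; dotted lines mark 1.5-fold. The 4 members whose 3' UTR holds the 8-base word lie at the top, left of 0 in both lines, and SLC6A8 lies furthest right in SK-MEL-28.

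Within single lines, 1.5-fold was used as a description. In SK-MEL-28, 1 of 21 expressed members was at least 1.5-fold higher (6.32% of all expressed genes were) and 3 were at least 1.5-fold lower (5.08% of all were). In A375, 0 of 21 were at least 1.5-fold higher (3.95% of all) and 2 at least 1.5-fold lower (3.94% of all). The lower ones were SLC7A2 and SLC38A1 in both lines and SLC38A2 in SK-MEL-28. Scaled by library totals alone, SLC7A2 was left as the only lower member at 1.5-fold in SK-MEL-28. The median log2 ratio of the expressed members was -0.03 in SK-MEL-28 and -0.19 in A375, beside 0.01 and -0.01 over all expressed genes of these lines.

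The creatine carrier SLC6A8 was the higher member. It had 64.4 FPKM in SK-MEL-28 siLINC01291 against 37.1 in SK-MEL-28 siNC, and 23.7 FPKM in A375 siLINC01291 against 17.9 in A375 siNC. The ratio was 1.69 in SK-MEL-28 (interval 1.64 to 1.75) and 1.28 in A375 (1.22 to 1.34), and over both lines the log2 value of 0.57 (SE 0.11) did not pass in edgeR (adjusted p = 0.0903) but did in DESeq2 (adjusted p = 0.00526). The pseudogene SLC6A10P resembles SLC6A8 and can share its reads; it had 7 and 4 counts in SK-MEL-28 and 167 and 157 in A375 (siLINC01291 and siNC), against 10791, 6233, 4305 and 3159 for SLC6A8 in the same order. SLC38A7 was also higher in both lines, with ratios of 1.21 in SK-MEL-28 (1.13 to 1.30) and 1.33 in A375 (1.21 to 1.47) and no call over both lines (edgeR adjusted p = 0.173).

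SLC7A5, SLC1A5 and SLC7A1 lay above siNC in SK-MEL-28 and below it in A375. SLC7A5 had a ratio of 1.19 in SK-MEL-28 (interval 1.18 to 1.21) and of 0.910 in A375 (0.901 to 0.918). SLC1A5 had 60.9 FPKM in SK-MEL-28 siLINC01291 against 48.2 in SK-MEL-28 siNC, and 78.5 FPKM in A375 siLINC01291 against 104 in A375 siNC. SLC7A1 had a ratio of 1.29 in SK-MEL-28 (1.25 to 1.33) and 0.853 in A375 (0.832 to 0.875). None of the 3 passed in the joint edgeR fit (adjusted p from 0.799 to 0.885), and with 1 library per group the difference between the lines in response could not be tested. SLC3A2, the heavy chain, had log2 ratios of 0.01 in SK-MEL-28 and -0.27 in A375 and did not pass (edgeR adjusted p = 0.548).

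SLC7A8, SLC1A4 and SLC6A7, the members highest in SK-MEL-28 relative to A375, had ratios near 1 there. SLC7A8 in SK-MEL-28 had a ratio of siLINC01291 to siNC of 0.979 (interval 0.951 to 1.008) and SLC1A4 of 0.901 (0.881 to 0.921). SLC6A7 there had a ratio of 1.008 (0.898 to 1.13). In A375, the glycine carrier SLC6A9 had a ratio of 0.735 (0.677 to 0.798) and SLC43A1 of 0.676 (0.582 to 0.785), with neither passing over both lines (edgeR adjusted p = 0.294 and 0.378). SLC43A3 and SLC36A1 had log2 ratios of -0.07 and -0.32 in SK-MEL-28 and -0.28 and 0.08 in A375, and SLC6A6 of -0.21 in SK-MEL-28 and 0.17 in A375. The other members tested, SLC38A6, SLC38A9, SLC38A10 and SLC7A6, lay between -0.19 and 0.17 on the log2 scale in both lines.

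Some of these values are uncertain because reads can be shared. Whether counting used the strand is not stated by the labels, and exons of SLC38A6, SLC6A9, SLC7A5 and SLC7A6 overlap listed genes of the opposite strand. The overlapping gene of SLC6A9, CCDC24, had 132 and 91 counts in SK-MEL-28 (siLINC01291 and siNC), more than the 22 and 22 of SLC6A9. TRMT5, which overlaps SLC38A6, had 641 and 722 counts in SK-MEL-28 and 644 and 680 in A375, more than SLC38A6 itself. SLC7A5 has pseudogene copies in the gene name table that are not among the listed genes, and so has SLC6A6.

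Genes that act beside these carriers showed no call over both lines. Of all 13501 genes tested 0.222% rose and 0.674% fell, so an absence of calls in lists this short says little about them. Of 28 tested genes that report amino acid supply to mTORC1, 0 rose and 0 fell (3 at an unadjusted p under 0.05 in edgeR), with a median log2 value of 0.04, beside 0.01 over all genes tested, of which 16.9% had an unadjusted p under 0.05. The same held for 11 mitochondrial amino acid carriers (median 0.03, 1 at an unadjusted p under 0.05), 23 enzymes of amino acid synthesis and glutamine use (median -0.07, 2 at an unadjusted p under 0.05) and 6 further transporters of the lysosome and cell surface (median 0.04, 1 at an unadjusted p under 0.05). Of the 7 members listed as targets of the stress factor ATF4, 0 passed (2 at an unadjusted p under 0.05). Medians within a line, here and below, were taken over the listed genes expressed in that line. For the ATF4 list this leaves out SLC6A9 in SK-MEL-28, where it is under an FPKM of 1 and had a log2 ratio of -0.03. The median log2 ratio of the others was 0.09 in SK-MEL-28, with single values from -0.60 (SLC38A2) to 0.37 (SLC7A1). In A375 the median was -0.39. The enzymes of amino acid synthesis and glutamine use had medians of 0.037 in SK-MEL-28 and -0.225 in A375. Medians of the mTORC1, mitochondrial and further transporter lists lay between -0.006 and 0.1 in both lines.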

How the data were processed

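Polyadenylated RNA of 4 libraries was sequenced. Per the labels' protocols, fastp cleaned the reads, HISAT2 aligned them, StringTie assembled transcripts and HTSeq did the counting. In the submitters' processing notes hg19, DESeq2 and edgeR are named, with no role given. The deposited counts are whole reads per gene, not normalised. The deposited CPM are scaled to whole library totals that exceed the listed genes, and served to find library totals. The deposited FPKM, made by the authors from CPM with 1 length per gene, give the levels. The deposited TPM were not used. Duplicates were removed by the authors without stated molecular identifiers, and the effect of this on the counting intervals was not tested. Intervals cover counting error only, as each group had 1 library.

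The 25 members and the gene lists were chosen with earlier results of these data known. Over both lines, edgeR 4.0.16 (R 4.3.3) fitted treatment and cell line with TMM factors to the 13501 genes that reached an FPKM of 1 in 2 or more libraries, and p-values were adjusted over all of them. Libraries were paired by cell line. Each SE given for the fit is the absolute log2 ratio divided by the square root of the F statistic of the edgeR test. Within a line, log2 ratios used TMM factors over all listed genes and a prior count of 2; a gene counted as expressed there when either library reached an FPKM of 1. Ratios and percentages of siNC use counts over the same library sizes, without a prior count. Limma 3.58.1, DESeq2 1.42.0, other scalings, filters and prior counts were tried as alternatives. On simulated counts for the 13501 genes of the comparison over both lines, the fit recovered 78, 100, 100 and 100% of genes planted at 1.5, 2, 4 and 8-fold, with 6 false among 195 calls. Planted genes were abundant ones changed by the same fold in both lines, and every gene was drawn at a common dispersion of 0.00776. These shares need not hold for genes of low level, of wider spread or with unlike shifts in the lines.

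Members were named with values by rule: those that passed over both lines, those at 1.5-fold in a line, those at an FPKM of at least 10, those called between the lines at 4-fold, and a fixed set (SLC1A5, SLC7A5, SLC7A1, SLC38A1, SLC38A2, SLC38A9, SLC36A1 and SLC43A2); the rest were added so that all members are accounted for. The 3' UTRs of at least 50 bases of 1 principal transcript per gene were read from GENCODE 29 (GRCh38), and no coordinates were converted. Drawings used Python 3.11.15 with matplotlib 3.10.9, and intervals scipy 1.17.1.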

Additional observations from a re-analysis of the deposited data

Results flagged for a closer look

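In 4 of the 19 members expressed in both lines, the siLINC01291 library lay above its control in one line and below it in the other, with both counting intervals away from a ratio of 1. The same held for 767 (6.98%) of the 10988 genes expressed in both lines; these intervals cover counting error only and are narrow for abundant genes. With 1 library per group these differences were not tested. The log2 ratio in SK-MEL-28 exceeded that in A375 by 0.75 for the glutamine carrier SLC1A5 (0.30 and -0.45), by 0.60 for the arginine and lysine importer SLC7A1 (0.37 and -0.23) and by 0.39 for SLC7A5 (0.25 and -0.14). For the taurine carrier SLC6A6 the difference was -0.39 (-0.21 in SK-MEL-28 and 0.17 in A375). With library totals in place of TMM factors, these signs stayed as they are.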

How the results depend on the processing

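Over both lines, 2 members were called lower and 0 higher, and over all genes 91 lower and 30 higher (2282 at an unadjusted p under 0.05). Without the replicate block of the cell line, edgeR called 0 members lower and 0 genes lower and 0 higher (51 at an unadjusted p under 0.05), and limma on log2(FPKM + 1) called 0 members lower and 0 genes lower and 0 higher (2023 had an unadjusted p under 0.05). DESeq2 called 3 members lower and 1 higher, and 203 genes lower and 99 higher. With no filter, edgeR called 3 members lower and 1 higher, and 238 genes lower and 146 higher. In both settings the lower members were SLC7A2, SLC38A1 and SLC38A2. At an FPKM of at least 5, edgeR called 0 members lower, and 27 genes lower and 5 higher, of 7997 tested. In SK-MEL-28, members at least 1.5-fold lower numbered 1 with library totals and 1 on log2(FPKM + 1); in A375, 1 at an FPKM of at least 5. Over all expressed genes, those at least 1.5-fold higher and lower numbered 444 and 328 on log2(FPKM + 1) and 232 and 296 at an FPKM of at least 5 in SK-MEL-28 (780 and 627 before), and 274 and 251, then 101 and 167, in A375 (523 and 522 before). The stricter filter tests fewer genes; otherwise the cause was not tested. Between the lines, 91 of 92 recomputed values of single members kept their side of the threshold, the exception being SLC7A6 in DESeq2. With library totals, SLC38A6 and SLC7A8 changed sign in SK-MEL-28. Leaving out a library leaves the fit over both lines no residual degree of freedom, so no such test was run. Depth limits SLC6A7 in A375, where 0 and 1 counts lie under the floor of 3 counts.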

Other observations

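Promoter sequences of RefSeq (GRCh38.p14, 250 bases before to 50 after each start) were at hand for 21 of the 25 members; SLC43A3, SLC6A15, SLC6A6 and SLC7A2 are not in that table. The word TGATGNAA, the core of the amino acid response element that ATF4 and its partners bind, was searched on both strands. It was found in 3 of the 21 promoters (14.3%), those of SLC1A3, SLC38A1 and SLC7A1, and in 3.67% of the 27305 promoters of the table. A match of these letters is a description of the window and not a binding site, and the genes that hold it did not share a direction: SLC38A1 fell over both lines, SLC7A1 had log2 ratios of 0.37 in SK-MEL-28 and -0.23 in A375, and SLC1A3 of 0.05 and -0.30 at under an FPKM of 1.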
